A study of Mus musculus with 24 samples.

Results

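The comparison described here is that of ΔRRE with WT mouse livers at CT6 and CT10, the hours of circadian time at which many genes driven by E-boxes climb to their peak and *Bmal1* falls to its trough. It rests on 8 of the 24 RNA-seq libraries of the study, picked by the titles, which name genotype and hour, with 2 libraries in each of the 4 groups of genotype and hour. Of 54733 listed genes, the 11244 that averaged 1 FPKM or more across all 24 libraries entered the tests. FPKM is the number of fragments of a gene scaled by its length and by the mapped fragments of the library. The study sequenced poly(A)-tailed RNA of livers collected every 4 h to ask what becomes of the liver transcriptome when *Bmal1* loses its own rhythm. All livers came from male mice of the C57BL/6 strain. The WT groups carried no mutation named in the labels, and the ΔRRE groups (genotype delta-RRE) carried a deletion of the pair of RREs of *Bmal1* on both alleles, made with CRISPR-Cas9 in the whole animal. The study's methods name 1 mutant line as the source of its mice by default, and any other change fixed in that line cannot be told apart from the deletion. The labels give neither the ages of the mice nor whether the libraries of a group came from separate animals, and the p-values then measure only the spread between these libraries.

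In the liver clock, a dimer of BMAL1 and CLOCK sits on E-boxes during the day, and its targets include its own inhibitors, the PERs and CRYs, which shut it off hours later. The nuclear receptors REV-ERB and ROR compete for a different element, the RRE (ROR/REV-ERB response element), where the former silence and the latter switch on *Bmal1* itself, *Cry1* and *E4bp4*. DBP, TEF and HLF activate, and E4BP4 represses, genes of liver metabolism through the D-box.

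The sequences of the RREs of *Bmal1* are shown because they are what the mutant mice lack. In the files *Bmal1* is listed as *Arntl* (ENSMUSG00000055116), on the plus strand at chr7:113207465-113314126 of GRCm38, with GENCODE M21 as the source of positions. Both RREs lie in exon 1, in the 5′ untranslated part of the transcript, at chr7:113207496-113207516 and chr7:113207532-113207552 with their flanks. The capitals mark the RRE:
Arntl first RRE: gtcggAAAGTAGGTTAgtggt
Arntl second RRE: ggcagAAAGTAGGTCAgggac
The window from 250 bases before to 50 bases after each RefSeq gene start (GRCm38.p6) was searched for the RRE in the form that ends in GGTCA and for the E-box CACGTG, on both strands. Of 32851 windows, 0.384% held such an RRE, those of *Arntl* included, and 7.15% held the E-box. Among the 11 E-box clock genes with a window in the table, 5 held a CACGTG, namely *Bhlhe41*, *Ciart*, *Cry1*, *Per1* and *Tef*, against 12.2% of the genes tested that had a window. *Ciart* and *Cry1* are shown because their differences between the genotypes at CT6 had opposite signs. The site of *Cry1* lies on the minus strand at chr10:85185101-85185122, and those of *Ciart* on the minus strand at chr3:95882331-95882352, chr3:95882273-95882294 and chr3:95882259-95882280, with the E-box in capitals:
Cry1: ccggtggtCACGTGgggtgcat
Ciart, the farthest from the start: tctagagtCACGTGttgccggt
Ciart, the middle: gggggaggCACGTGcagaaccg
Ciart, the nearest to the start: cagaaccgCACGTGtctgggag

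The FPKM of the 8 libraries summed to between 554170 and 612090. Replicates of a group had a Pearson's r from 0.961 to 0.969 across genes on the log2 scale, and libraries of different genotypes at the same hour from 0.958 to 0.971, so that these ranges overlapped. The label liver was checked against 7 hepatocyte markers, whose summed level was 35002 to 50548 FPKM in WT and 33322.5 to 39389 FPKM in ΔRRE livers. *Alb*, which encodes serum albumin, alone measured 18568 to 34968 FPKM. Of 5 pancreas markers, *Cpa1*, *Pnlip* and *Prss2* were listed at 0 in all 8 libraries. So were *Ckm* and *Myh4* of 5 muscle markers and *Lep* of 4 fat markers. The 5 muscle markers still summed to 12.8 to 26.2 FPKM in WT and 14.6 to 34.4 FPKM in ΔRRE livers. At CT10 they summed to 15.6 and 16.5 FPKM in WT and 26.4 and 34.4 FPKM in ΔRRE. Of the 5 muscle markers, 4 stayed under 1 FPKM in all 8 libraries, so these sums rest mostly on *Csrp3*. All 5 pancreas markers and 3 of the fat markers stayed under 1 FPKM in all 8 libraries. Red cell markers were highest in ΔRRE replicate 1 at CT10, where 5 of them summed to 4322 FPKM, against 708 to 1395 FPKM in the other 7 libraries.

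No gene passed an adjusted p of 0.05 between the genotypes over both hours (0 of 11244, smallest adjusted p = 0.829 in limma's test with the time point as a factor). An unadjusted p under 0.05 was found for 549 genes (4.88%), where 562.2 are expected if no gene differs. Of these, 347 (3.09%) were higher and 202 (1.80%) lower in ΔRRE. The median log2 difference over all genes was 0.01 and the median standard error 0.17. An exact permutation test of a single gene within the hours has 36 divisions of the libraries and cannot give a two-sided p below 0.0556. The count of adjusted calls depended on single libraries. It was 5 without WT replicate 1 at CT6 (*Igfbp1*, *Itih3*, *Lcn2*, *Orm2* and *Pck1*, all higher in ΔRRE) and 3 without WT replicate 2 at CT10 (*Gm2274*, *mt-Ts2* and *Saa1*). Since no gene passed with all libraries, "higher" and "lower" below describe the values measured, not a call. Standard errors (SE) are given beside many of the differences, though not all.

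*Bmal1* was the gene with the clearest difference at CT10 and had a far smaller difference at CT6. At CT6 it measured 2.42 and 2.86 FPKM in the WT libraries and 3.01 and 4.21 FPKM in the ΔRRE libraries. At CT10 it measured 0.195 and 0.0919 FPKM in WT and 2.50 and 2.1 FPKM in ΔRRE. WT livers thus had far less *Bmal1* mRNA at CT10 than at CT6, while the ΔRRE livers at CT10 were near the level of WT at CT6, and the genotypes did not overlap at either hour. Of all genes tested, ΔRRE was above WT without overlap in 16.2% at CT6 and 17.4% at CT10, and below WT without overlap in 11.8% and 15.4%. The log2 difference, computed as log2(FPKM + 0.1) in ΔRRE minus WT, was 0.42 (SE 0.34, adjusted p = 1) at CT6 and 3.33 (SE 0.34, adjusted p = 0.111) at CT10. Over both hours it was 1.88 (SE 0.54, adjusted p = 0.945). In 1 fit of all 24 libraries, whose spread rests on more libraries, the same difference over both hours had an adjusted p of 0.000312, and that at CT10 an adjusted p of 1.22e-05. Since the WT libraries at CT10 lie near the constant added before the logarithm, the difference over both hours moved to 0.93 when the constant was 1 FPKM and to 2.21 when it was 0.01 FPKM. That at CT10 moved to 1.53 and 3.99. As whole liver was sequenced, a change in the number of cells of a type and a change in RNA per cell cannot be told apart for this or any other gene.

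**Figure D1:**
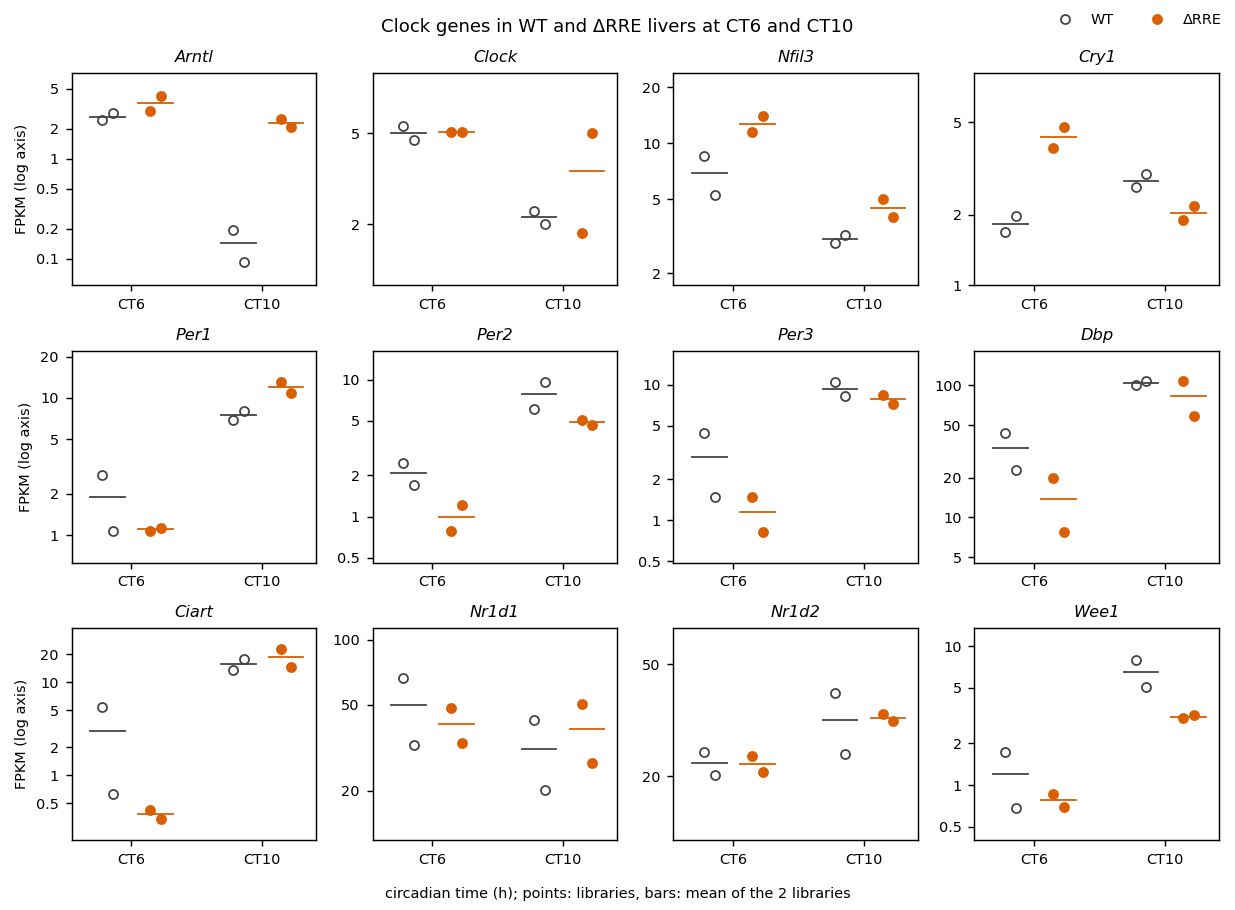
FPKM (log axis) of 12 clock genes in each library at CT6 and CT10, with open points for WT, filled points for ΔRRE and bars for the mean of 2 libraries. *Arntl* in WT drops to 0.195 and 0.0919 FPKM at CT10, while both ΔRRE libraries stay above 2 FPKM, and *Cry1* lies above WT at CT6 and below WT at CT10.

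The partners of BMAL1 showed no such difference at CT10. *Clock* measured 5.40 and 4.67 FPKM in WT and 5.08 and 5.06 FPKM in ΔRRE at CT6. At CT10 it was 2.28 and 2.01 FPKM in WT and 1.83 and 5.02 FPKM in ΔRRE, so that a single ΔRRE library stood above all others of that hour. The difference over both hours was 0.25 (SE 0.28), and it was −0.08 without ΔRRE replicate 2 at CT10. *Npas2*, the relative of *Clock*, was at 0.510 and 0.500 FPKM in WT and 0.865 and 3.38 FPKM in ΔRRE at CT6, and at or under 0.486 FPKM in every library at CT10. At CT6 it was thus above WT without overlap, as were 16.2% of all genes tested. Its difference over both hours ranged from 0.07 to 1.34 with a library left out.

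Among the genes that REV-ERB controls through RREs, 6 were tested and all 6 had a difference above 0 over both hours, with a median of 0.68, against 52.3% of all genes. At CT10 alone 4 were above and 2 below 0. Over both hours only *Arntl* and *Nfil3* had an unadjusted p under 0.05, and *Arntl* is the mutated gene itself. *Nfil3*, which encodes the repressor E4BP4, measured 8.58 and 5.25 FPKM in WT and 11.5 and 14.0 FPKM in ΔRRE at CT6. At CT10 it was 2.91 and 3.20 FPKM in WT and 5.0 and 4.0 FPKM in ΔRRE. Both ΔRRE libraries lay above both WT libraries at each hour, which was the case for 3.34% of all genes tested. The difference of *Nfil3* was 0.72 (SE 0.19, adjusted p = 0.945). *Cdkn1a*, the cell cycle inhibitor p21, was highest in ΔRRE replicate 2 at CT6 with 3.24 FPKM, against 1.13 and 0.358 FPKM in WT at that hour. *Cry1*, *Clock* and *Npas2* are the other members tested. *Rora*, which encodes an activator at the RRE and is no member, had a difference of 0.19 (SE 0.15), and its libraries overlapped at CT10. The median of the list lay between 0.44 and 0.91 when each library was left out in turn.

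*Cry1*, which encodes a repressor of CLOCK and BMAL1 and has both an E-box and an RRE, was on opposite sides at CT6 and CT10. At CT6 it measured 1.69 and 1.97 FPKM in WT and 3.86 and 4.76 FPKM in ΔRRE. At CT10 it measured 2.63 and 2.98 FPKM in WT and 1.90 and 2.18 FPKM in ΔRRE. WT livers were low at CT6 and higher at CT10, and ΔRRE livers the reverse. Such a pattern without overlap was seen in 4.02% of all genes tested. The difference was 1.19 at CT6 (SE 0.23, adjusted p = 1) and −0.44 at CT10 (SE 0.23), and the difference between the hours was −1.63 (SE 0.33, adjusted p = 1 in limma's interaction contrast). *Hlf*, an activator at the D-box, had the same order, with 6.39 and 6.35 FPKM in WT against 9.55 and 11.0 FPKM in ΔRRE at CT6, and 10.1 and 8.41 FPKM in WT against 7.75 and 7.43 FPKM in ΔRRE at CT10. *Cry2* was 0.14 (SE 0.14) higher and overlapped at both hours.

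The E-box clock genes, of which *Cry1* is a member, were divided. Of the 12 tested, 6 were above and 6 below 0 over both hours, with a median of 0.01. Only *Per2* and *Dbp* had an unadjusted p under 0.05, both lower in ΔRRE, beside 1.80% of all genes. At CT6 alone 4 were above and 8 below 0, with a median of −0.32. At that hour 2 were higher and 4 lower with an unadjusted p under 0.05, beside 1.55% and 1.32% of all genes. At CT10 alone 5 were above and 7 below 0, with a median of −0.10. *Per2*, a repressor of the clock, measured 2.46 and 1.69 FPKM in WT and 0.782 and 1.22 FPKM in ΔRRE at CT6. At CT10 it measured 6.12 and 9.59 FPKM in WT and 5.06 and 4.69 FPKM in ΔRRE. *Per2* was higher at CT10 than at CT6 in both genotypes and below WT in ΔRRE at both hours, with a difference of −0.82 (SE 0.22, adjusted p = 0.945). No overlap with lower ΔRRE libraries at both hours was seen in 1.88% of all genes. *Dbp* was at 43.8 and 22.7 FPKM in WT and 20 and 7.71 FPKM in ΔRRE at CT6, and at 101 and 108 FPKM in WT and 107 and 58.5 FPKM in ΔRRE at CT10. Its difference of −0.87 (SE 0.36, adjusted p = 0.999) rested mostly on CT6, where it was −1.34. The gap closed at CT10, where the libraries overlapped and the difference was −0.40.

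*Ciart*, a repressor also called *Chrono*, had a wide spread between replicates. At CT6 it measured 5.42 and 0.636 FPKM in WT and 0.427 and 0.344 FPKM in ΔRRE. At CT10 it measured 13.4 and 17.7 FPKM in WT and 22.5 and 14.6 FPKM in ΔRRE. The low level at CT6 was thus shared by 3 of the 4 libraries, and WT replicate 1 alone was high. *Usp2* and *Per3* had the same order at CT6, with 5.01 and 4.40 FPKM in WT replicate 1 and 0.39 to 1.5 FPKM in the other 3 libraries. Without that library, the difference of *Ciart* at CT6 was −0.61 in place of −2.06, and the median of the list over both hours was 0.07. *Per1* measured 2.74 and 1.07 FPKM in WT and 1.07 and 1.13 FPKM in ΔRRE at CT6, and 6.94 and 8.05 FPKM in WT and 13.0 and 10.9 FPKM in ΔRRE at CT10. At CT10 *Per1* stood above WT in both ΔRRE libraries, while *Per2* stood below.

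*Nr1d1* and *Nr1d2*, which encode the repressors REV-ERBα and REV-ERBβ, did not separate the genotypes. *Nr1d1* ranged from 20.1 to 66.8 FPKM in WT and from 26.9 to 50.4 FPKM in ΔRRE over both hours, and its difference was 0.05 (SE 0.33). *Nr1d2* ranged from 20.2 to 39.5 FPKM in WT and from 20.7 to 33.3 FPKM in ΔRRE, with a difference of 0.03 (SE 0.16). The libraries of both genes overlapped at both hours. *Bhlhe40* (difference −0.00, SE 0.16) and *Tef* (−0.30, SE 0.19) also lay within the spread, and *Bhlhe41* was below the filter, with 0.844 and 0.816 FPKM in WT and 0.343 and 0.425 FPKM in ΔRRE at CT6.

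All 6 E-box outputs tested had a difference below 0, with a median of −0.51, against 47.7% of all genes. *Wee1*, a kinase that holds back mitosis, was the only member with an unadjusted p under 0.05. It measured 1.72 and 0.683 FPKM in WT and 0.856 and 0.697 FPKM in ΔRRE at CT6, and 7.94 and 5.06 FPKM in WT and 3.04 and 3.18 FPKM in ΔRRE at CT10. At CT10 both ΔRRE libraries were below both WT libraries, with a difference of −1.01 (SE 0.42) at that hour. Over both hours the difference of *Wee1* was −0.73 (SE 0.29, adjusted p = 0.999). *Gys2*, the glycogen synthase of liver, was at 118 and 131 FPKM in WT and 106 and 56.5 FPKM in ΔRRE at CT10. *Noct*, *Usp2*, *Nampt* and *Klf10* had differences of −0.56, −0.94, −0.24 and −0.24. That of *Usp2* was −0.43 without WT replicate 1 at CT6. No member was without overlap at both hours.

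The acute-phase genes, which liver turns on during inflammation, held the highest-ranked genes of the whole comparison. Of 20 members tested, 12 were higher with an unadjusted p under 0.05 and none lower, beside 3.09% of all genes, and all 20 had a difference above 0, with a median of 0.53. None passed adjustment. *Saa1*, a serum amyloid protein, measured 41.3 and 48.7 FPKM in WT and 299 and 626 FPKM in ΔRRE at CT6. At CT10 it measured 66.3 and 300.4 FPKM in WT and 916 and 533 FPKM in ΔRRE. The genotypes did not overlap, although WT replicate 2 at CT10 reached the level of the lower ΔRRE library at CT6. The difference of *Saa1* was 2.79 (SE 0.47, adjusted p = 0.829), and it was 3.32 (adjusted p = 0.0209) without that WT library and 2.45 (adjusted p = 0.826) without the other WT library at CT10.

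*Saa2*, its neighbour and near copy, measured 15.8 and 18.8 FPKM in WT and 70.7 and 255 FPKM in ΔRRE at CT6, and 20.9 and 86.0 FPKM in WT and 429.5 and 168 FPKM in ΔRRE at CT10. *Lcn2*, an iron-sequestering lipocalin, was at 10.0 and 2.62 FPKM in WT and 16 and 24.8 FPKM in ΔRRE at CT6, and at 3.35 and 10.6 FPKM in WT and 79.4 and 87.1 FPKM in ΔRRE at CT10. *Orm2*, an acid glycoprotein of plasma, measured 40.4 and 18.5 FPKM in WT and 79.2 and 54.1 FPKM in ΔRRE at CT6, and 36.8 and 38.1 FPKM in WT and 186 and 155 FPKM in ΔRRE at CT10. For these genes each ΔRRE library exceeded each WT library of its hour. The differences were 2.81 (SE 0.53) for *Saa2*, 2.85 (SE 0.54) for *Lcn2* and 1.72 (SE 0.28) for *Orm2*, which had the smallest p of all genes (adjusted p = 0.829). *Saa1* and *Saa2*, and the members of the *Orm* family, are so alike that reads could have been shared between them in the authors' counting.

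**Figure D2:**
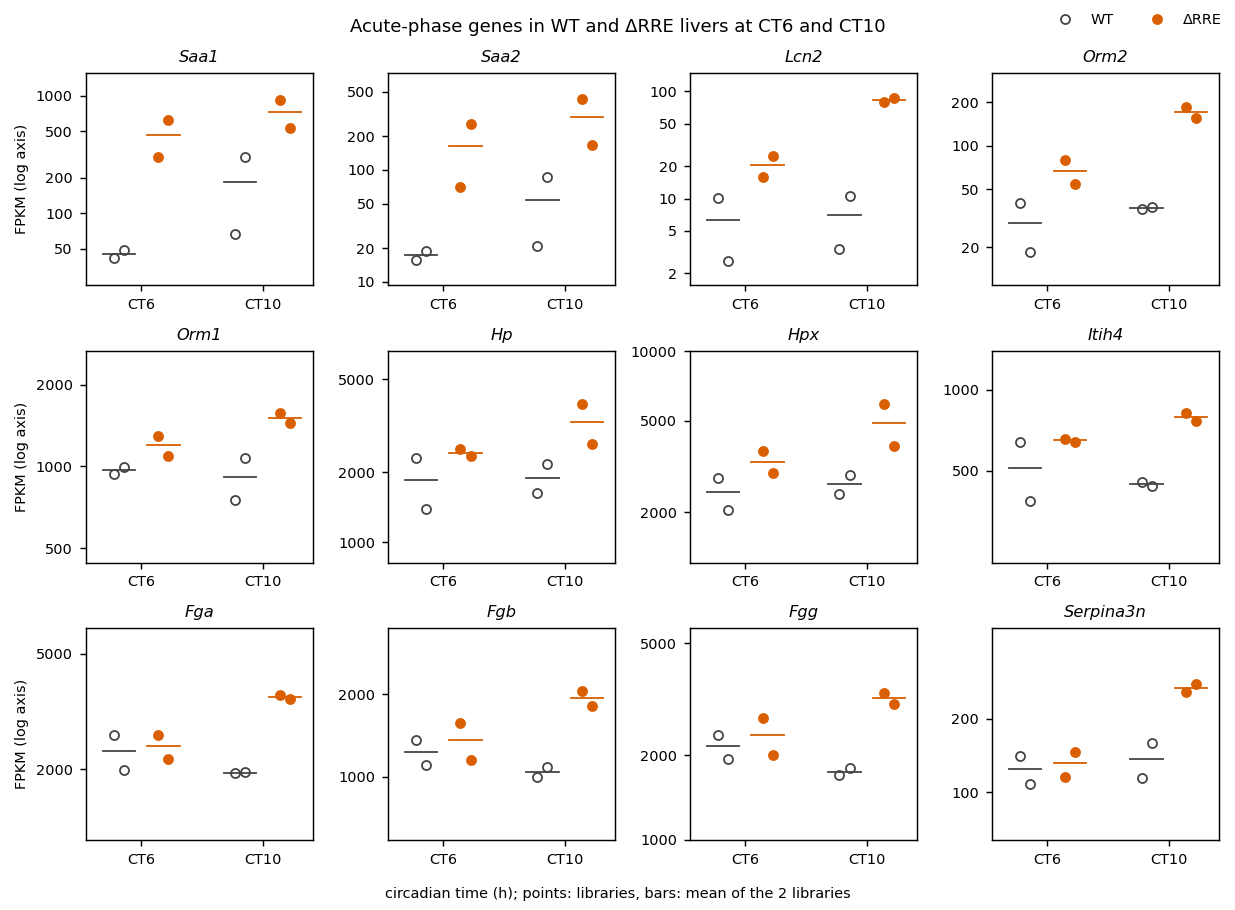
FPKM (log axis) of the 12 acute-phase genes with an unadjusted p under 0.05, in each library at CT6 and CT10, with open points for WT, filled points for ΔRRE and bars for the mean of 2 libraries. At CT10 the ΔRRE libraries lie above the WT libraries in every panel, as they do in 17.4% of all genes tested. The panels were picked by p-values from these same libraries, so this separation is no separate evidence. At CT6 the fibrinogen genes *Fga*, *Fgb* and *Fgg* and *Serpina3n* overlap.

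More abundant plasma proteins were higher by less and chiefly at CT10. *Fga*, a chain of fibrinogen, measured 2627 and 1984 FPKM in WT and 2631 and 2168 FPKM in ΔRRE at CT6. At CT10 it measured 1931 and 1956 FPKM in WT and 3614 and 3503 FPKM in ΔRRE. The difference was 0.06 at CT6 and 0.87 at CT10, and *Fgb* and *Fgg*, the other chains, had 0.88 and 0.87 at CT10. *Hp*, *Hpx*, *Itih4*, *Orm1* and *Serpina3n* had differences between 0.52 and 0.66 over both hours. At CT10 alone, 15 of the 20 members were higher with an unadjusted p under 0.05, beside 3.34% of all genes, and at CT6 alone 4, beside 1.55%. The median of the list was 0.32 at CT6 and 0.86 at CT10, and at the other hours it was 0.08 (CT2), 0.59 (CT14), −0.19 (CT18) and 0.31 (CT22). Over both hours, 6 members were higher with an unadjusted p under 0.05 when no filter was used, where 653 of all 28380 genes were. In the fit of all 24 libraries 10 members were, where 391 of all 11244 genes were. When each library was left out in turn, between 7 and 16 members were higher with an unadjusted p under 0.05, with 16 without WT replicate 1 at CT6 and 7 without WT replicate 2 at CT6, WT replicate 1 at CT10 or ΔRRE replicate 1 at CT10.

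Signals that accompany this group were measured beside it. *Socs3*, a feedback inhibitor of cytokine signals, was at 9.25 and 7.40 FPKM in WT and 6.16 and 6.71 FPKM in ΔRRE at CT6, and at 5.60 and 2.80 FPKM in WT and 8.40 and 6.35 FPKM in ΔRRE at CT10. It therefore did not share the higher level of *Saa1* in ΔRRE at CT6. *Stat3* had a difference of 0.34 (SE 0.23), and *Hamp*, the iron hormone hepcidin, 0.98 (SE 0.62), with 87.8 FPKM in WT replicate 2 at CT6 and 692 to 1357 FPKM in the other 7 libraries. The 6 neutrophil markers summed to 0.653 to 3.64 FPKM in WT and 2.08 to 4.23 FPKM in ΔRRE, with 4 of them under 1 FPKM in all 8 libraries, and the 9 Kupffer cell markers to 34.5 to 123 FPKM in WT and 40.6 to 66.1 FPKM in ΔRRE. The part of these cells in the acute-phase values was not tested.

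Beyond the acute-phase genes, the 10 highest-ranked genes included *Lgalsl*, *Lamtor3*, *Slc45a3*, *Ctcflos*, *Adprhl2* and *Ctgf*. *Lamtor3*, a subunit of the Ragulator complex on lysosomes, measured 3.85 and 4.12 FPKM in WT and 7.77 and 6.15 FPKM in ΔRRE at CT6, and 4.58 and 6.43 FPKM in WT and 9.94 and 8.52 FPKM in ΔRRE at CT10. Its difference of 0.77 (SE 0.15) was nearly the same at both hours. *Ctgf*, connective tissue growth factor, averaged 0.622 ± 0.164 FPKM over the WT livers and 1.99 ± 0.764 FPKM over the ΔRRE livers of both hours (SD, n = 4 each), with a difference of 1.49 (SE 0.30). The differences were 0.78 for *Lgalsl*, a galectin-like protein, 1.01 for *Slc45a3*, a solute carrier, 0.62 for *Adprhl2*, which removes ADP-ribose, and 1.3 for *Ctcflos*, an antisense transcript. All 6 had an adjusted p of 0.829.

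The 10 highest-ranked genes in the other direction had differences between −0.53 and −1.40, apart from *mt-Ts2*. *Sys1*, a protein of Golgi transport, measured 19.4 and 18.2 FPKM in WT and 11.3 and 14.3 FPKM in ΔRRE at CT6, and 16.7 and 20.5 FPKM in WT and 12.1 and 12.6 FPKM in ΔRRE at CT10 (difference −0.57, SE 0.12). *Ccnd1*, cyclin D1 of the cell cycle, measured 21.4 and 6.68 FPKM in WT and 3.30 and 4.47 FPKM in ΔRRE at CT6, and 16 and 10.5 FPKM in WT and 6.11 and 5.17 FPKM in ΔRRE at CT10. Its difference was −1.40 (SE 0.33, adjusted p = 0.836). *Slc5a6*, the transporter of biotin and pantothenate, had −0.64 (SE 0.16), and *Rogdi*, *Trip10*, *Eepd1* and *Fam47e* had −0.60, −0.64, −0.61 and −0.53. The non-coding *C730036E19Rik* and the pseudogene *Gm15459* had −0.79 and −0.71. *mt-Ts2*, a mitochondrial tRNA, was either at 138 to 272 FPKM, in 3 WT libraries, or at 0.364 to 0.494 FPKM, in the other WT library and all ΔRRE libraries. A difference of −6.37 (SE 1.58) for so short a gene rests on this on-or-off listing.

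Genes that respond to glucocorticoids were higher in ΔRRE mainly at CT10. Over both hours 12 of 13 had a difference above 0, beside 52.3% of all genes, with a median of 0.56. *Tsc22d3*, *Pck1* and *Tat* were higher with an unadjusted p under 0.05, beside 3.09% of all genes. The median was −0.26 at CT6 and 0.71 at CT10, where 6 members were higher with an unadjusted p under 0.05, beside 3.34% of all genes. The median over both hours was 0.29 without ΔRRE replicate 1 at CT10, 0.35 without WT replicate 1 at CT10 and 0.77 without ΔRRE replicate 1 at CT6. ΔRRE replicate 1 at CT10 was the library with the most red cell RNA, and whether this bears on the median was not tested. *Tsc22d3*, the glucocorticoid-induced leucine zipper, measured 15.2 and 15.1 FPKM in WT and 17.0 and 24.9 FPKM in ΔRRE at CT6, and 16.9 and 27.7 FPKM in WT and 37.2 and 39.1 FPKM in ΔRRE at CT10. *Tat*, the tyrosine aminotransferase, measured 543 and 263 FPKM in WT and 316 and 654 FPKM in ΔRRE at CT6, and 300.5 and 305 FPKM in WT and 904 and 775 FPKM in ΔRRE at CT10. *Tat* was thus above WT without overlap at CT10, while its libraries overlapped at CT6. *Mt1*, a metallothionein that binds zinc, measured 135 and 76.4 FPKM in WT and 71.7 and 23.4 FPKM in ΔRRE at CT6, and 63.2 and 155 FPKM in WT and 1488 and 824 FPKM in ΔRRE at CT10. *Mt2* had 11.2 and 21 FPKM in WT and 695 and 123 FPKM in ΔRRE at CT10. Both metallothioneins lay below WT at CT6 and above at CT10, without overlap at either hour. Opposite sides without overlap, in either order, were seen in 4.02% of all genes tested. The 11 immediate-early genes, which respond within minutes to signals, likewise had a median of −0.58 at CT6 and 0.38 at CT10, and the 13 growth hormone and male-biased genes the reverse, with 0.25 and −0.54, and over both hours no member of these lists had an unadjusted p under 0.05. At CT6, 4 immediate-early genes were lower with an unadjusted p under 0.05, beside 1.32% of all genes, and 3 had one for the difference between the hours, all positive, beside 1.94%.

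Among genes of glucose and glycogen metabolism, 4 of 16 were higher and 2 lower with an unadjusted p under 0.05, beside 3.09% and 1.80% of all genes. *G6pc*, which releases free glucose, measured 42.3 and 50.3 FPKM in WT and 76.5 and 145 FPKM in ΔRRE at CT6, and 27.8 and 33.2 FPKM in WT and 48.3 and 134 FPKM in ΔRRE at CT10 (difference 1.29, SE 0.31). *Pck1*, the enzyme that commits to gluconeogenesis, measured 893 and 294 FPKM in WT and 837 and 619.8 FPKM in ΔRRE at CT6, and 701 and 691 FPKM in WT and 1859.7 and 1599.5 FPKM in ΔRRE at CT10 (0.90, SE 0.33). *Pklr*, the pyruvate kinase of glycolysis, measured 43.5 and 69.3 FPKM in WT and 33.0 and 43.2 FPKM in ΔRRE at CT6, and 78.8 and 71.1 FPKM in WT and 31.6 and 48.4 FPKM in ΔRRE at CT10 (−0.74, SE 0.20). Over the whole list 9 members were above and 7 below 0, and none passed adjustment. *Igfbp1*, which insulin represses, had a difference of 1.75 (SE 0.68), and *Gckr* and *Slc2a2*, the glucokinase regulator and the glucose transporter of hepatocytes, 0.38 and −0.43. *Igfbp1* and *Pck1* passed adjustment without WT replicate 1 at CT6, at 2.59 and 1.3 (adjusted p = 0.0407 for each in limma's test), but were at 1.17 and 0.66 without WT replicate 2 at CT6, with an unadjusted p above 0.05.

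Enzymes of amino acid breakdown and the urea cycle were above 0 in 16 of 17 cases, beside 52.3% of all genes. The median was 0.29 over both hours, 0.11 at CT6 and 0.57 at CT10. *Sds*, serine dehydratase, measured 191 and 137 FPKM in WT and 125 and 294 FPKM in ΔRRE at CT6, and 90.2 and 181 FPKM in WT and 508 and 339 FPKM in ΔRRE at CT10. *Hal*, histidine ammonia-lyase, had a difference of 0.50 (SE 0.20), and *Tat* is a member here too. At CT10, 8 of the 17 had an unadjusted p under 0.05, all higher, beside 3.34% of all genes. Over both hours 3 members had an unadjusted p under 0.05, all higher, beside 3.09% of all genes. The median over both hours was 0.15 without ΔRRE replicate 1 at CT10, 0.19 without WT replicate 1 at CT10 and 0.42 without WT replicate 1 at CT6. ΔRRE replicate 1 at CT10 also had the most red cell RNA, and whether this bears on the median was not tested.

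Of 24 genes of cholesterol synthesis and uptake, 23 had a difference below 0, beside 47.7% of all genes, with a median of −0.57. Only *Stard4*, a carrier of cholesterol, was lower with an unadjusted p under 0.05, beside 1.80% of all genes. *Stard4* measured 36.5 and 19.7 FPKM in WT and 16.3 and 21.2 FPKM in ΔRRE at CT6, and 30.9 and 21.6 FPKM in WT and 13.1 and 13.3 FPKM in ΔRRE at CT10 (−0.74, SE 0.22). *Insig2*, which holds the sterol sensor in place, was the exception, with a difference of 0.66 (SE 0.26). The spread between replicates was wide for the enzymes of the pathway. *Sqle*, squalene epoxidase, measured 59.1 and 9.38 FPKM in WT and 3.51 and 20.7 FPKM in ΔRRE at CT6, and 17.0 and 5.56 FPKM in WT and 2.27 and 4.13 FPKM in ΔRRE at CT10. WT replicate 1 at CT6 held the highest level of *Sqle* and of *Idi1* (196 FPKM). Without it the median of the list was −0.17 with 5 members above 0, while the median was −0.89 without WT replicate 2 at CT6. The median at the other hours was 0.02 (CT2), 0.36 (CT14), 0.73 (CT18) and 0.11 (CT22).

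Of 14 genes of fatty acid synthesis, 10 were below 0, beside 47.7% of all genes, with a median of −0.33. *Elovl6*, *Thrsp* and *Fasn* were lower with an unadjusted p under 0.05, beside 1.80% of all genes. The median was −0.54 and −0.52 without WT replicate 2 at CT6 or at CT10, −0.16 and −0.15 without WT replicate 1 at CT6 or at CT10, and −0.18 without ΔRRE replicate 1 at CT6. *Thrsp*, a lipogenic protein also called Spot 14, measured 227 and 121 FPKM in WT and 35.8 and 126 FPKM in ΔRRE at CT6, and 99.5 and 201 FPKM in WT and 29.8 and 70.8 FPKM in ΔRRE at CT10 (−1.46, SE 0.45). *Elovl6*, a fatty acid elongase, had −0.85 (SE 0.25) and *Fasn*, fatty acid synthase, −0.84 (SE 0.36). At CT10 all 14 were below 0, beside 49.2% of all genes. *Cyp8b1*, which sets the kind of bile acid made, measured 178 and 191 FPKM in WT and 64.8 and 189.6 FPKM in ΔRRE at CT6, and 179 and 151 FPKM in WT and 65.0 and 109 FPKM in ΔRRE at CT10, and was the only one of 11 bile acid genes with an unadjusted p under 0.05. The 16 genes of PPARα and β-oxidation had a median of 0.02, and none had an unadjusted p under 0.05. *Pdk4*, a switch from glucose to fat burning, stood at 3.23 and 0.738 FPKM in WT and 5.17 and 6.09 FPKM in ΔRRE at CT6.

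D-box outputs and drug-metabolizing genes had no common direction. *Cyp2b10* measured 2.78 and 1.91 FPKM in WT and 4.82 and 8.56 FPKM in ΔRRE at CT6, and 3.08 and 0.397 FPKM in WT and 9.46 and 1.73 FPKM in ΔRRE at CT10 (1.59, SE 0.64). *Cyp2a5*, another cytochrome P450 with a D-box, had 959 and 652 FPKM in WT and 524 and 375 FPKM in ΔRRE at CT10 (−0.87 over both hours, SE 0.32), and *Cyp1a2* −0.47 (SE 0.20). The medians were −0.10 over 5 D-box outputs and −0.05 over 19 drug-metabolizing genes. *Alas1*, the first enzyme of heme synthesis, was below WT at CT6, with 98.2 and 127 FPKM in WT and 26.8 and 35.9 FPKM in ΔRRE, and overlapped at CT10, with 178 and 395 FPKM in WT and 203 and 384 FPKM in ΔRRE.

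Genes of protein folding were mostly lower. In the unfolded protein response 18 of 19 were below 0, beside 47.7% of all genes, with a median of −0.25. *Manf* (−0.72, SE 0.25) and *Hyou1* (−0.74, SE 0.32), both helpers of folding in the endoplasmic reticulum, were lower with an unadjusted p under 0.05, beside 1.80% of all genes. Of 18 heat shock and cold-inducible genes 15 were below 0, with a median of −0.14, and *Hsph1*, a chaperone, measured 8.88 and 6.44 FPKM in WT and 5.33 and 3.41 FPKM in ΔRRE at CT6, and 4.92 and 10.6 FPKM in WT and 4.19 and 4.49 FPKM in ΔRRE at CT10 (−0.77, SE 0.25). No gene of the unfolded protein response had an unadjusted p under 0.05 with no filter or in the fit of all 24 libraries. With the replicate number as a block 6 were lower, where 220 of all 11244 genes were. The median ranged from −0.35 without ΔRRE replicate 1 at CT6 to −0.14 without ΔRRE replicate 2 at CT6. Of 7 cell cycle genes tested, 1 was higher and 3 lower with an unadjusted p under 0.05, beside 3.09% and 1.80% of all genes. *Gadd45g* had a difference of 1.86 (SE 0.69), and *Gadd45a* had −0.77 (SE 0.31) beside *Ccnd1* and *Wee1*. *Gadd45g*, a stress sensor, ranged from 0.704 and 0.710 FPKM in WT at CT10 to 43.0 FPKM in ΔRRE replicate 2 at CT6.

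Large sets of housekeeping genes stayed near 0. The medians were −0.01 for 81 ribosomal proteins, −0.03 for 37 proteasome subunits and −0.00 for 94 nuclear genes of the respiratory chain, of which *Psmd9* (0.30, SE 0.12) and *Cox7a2l* (0.35, SE 0.11) had an unadjusted p under 0.05. The clock kinases and F-box proteins, which set the stability of PER and CRY, had a median of 0.06 over 10 genes, with none at an unadjusted p under 0.05, and the 16 genes of NAD metabolism 0.12, likewise with none. Of 35 transcripts of the mitochondrial genome 33 were below 0, beside 47.7% of all genes, with a median of −0.14. The median was also below 0 at the other hours, with −0.09 (CT2), −0.24 (CT14), −0.19 (CT18) and −0.25 (CT22). The list summed to 73489.7 to 90819.8 FPKM in WT and 64171 to 83920.5 FPKM in ΔRRE at CT6 and CT10. *mt-Tw*, a tRNA, had −0.37 (SE 0.12).

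**Figure D3:**
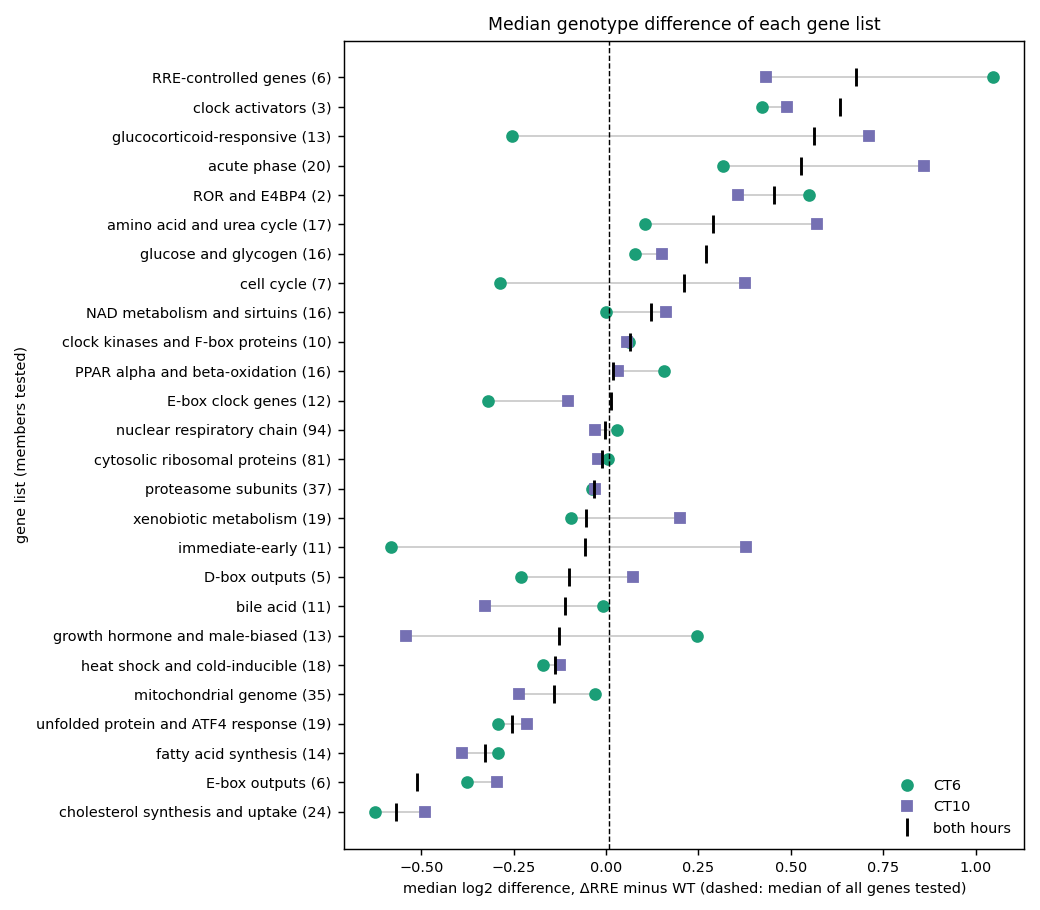
Median log2 difference (ΔRRE minus WT) of each gene list at CT6 (circles), at CT10 (squares) and over both hours (bars), with the number of members tested in brackets and a dashed line at the median of all genes, 0.01. The RRE-controlled and acute-phase genes lie to the right at both hours, cholesterol synthesis and the E-box outputs to the left at both, and the glucocorticoid-responsive genes at −0.26 at CT6 and 0.71 at CT10.

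The genotype difference was then compared between the hours themselves. No gene passed an adjusted p of 0.05 for the difference at CT10 minus that at CT6 (0 of 11244, smallest adjusted p = 0.228), and 414 (3.68%) had an unadjusted p under 0.05, 218 (1.94%) with a positive and 196 (1.74%) with a negative value. The smallest p belonged to *Raet1e*, which encodes a ligand of the immune receptor NKG2D. *Raet1e* measured 4.20 and 5.0 FPKM in WT and 16.6 and 15.2 FPKM in ΔRRE at CT6, and 7.16 and 7.50 FPKM in WT and 5.50 and 4.64 FPKM in ΔRRE at CT10. The ΔRRE livers stood well above WT at CT6 and below WT at CT10, and the difference between the hours was −2.30 (SE 0.26). *Raet1e* has close relatives in the same region, so that its reads could have been shared with them. *Arntl* (2.91, SE 0.47), *Mt1* (4.79, SE 0.87), *Trex1* and *Cry1* followed, each with an adjusted p of 1. *Trex1*, a DNA exonuclease, measured 1.05 and 1.91 FPKM in WT and 1.80 and 3.26 FPKM in ΔRRE at CT6, and 2.70 and 3.56 FPKM in WT and 0.224 and 0.587 FPKM in ΔRRE at CT10. At single hours, 322 genes (2.86%) had an unadjusted p under 0.05 at CT6, with 148 (1.32%) of them lower in ΔRRE, and 622 (5.53%) at CT10, with 246 (2.19%) lower, and none passing adjustment (smallest adjusted p = 0.122 and 0.111).

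**Figure D4:**
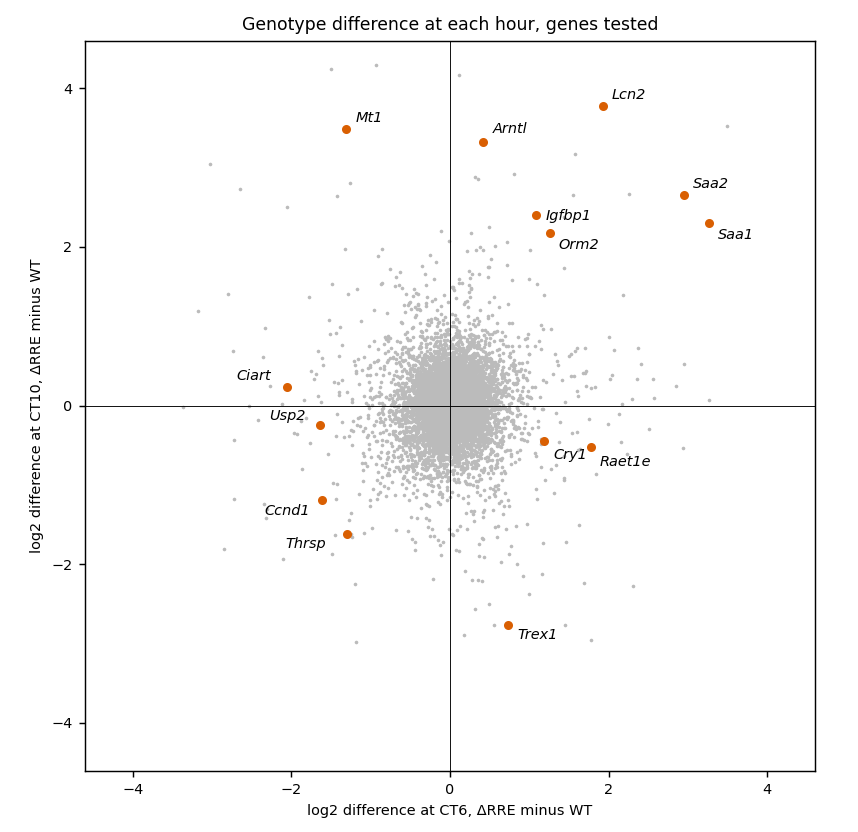
Log2 difference (ΔRRE minus WT) of each gene at CT6 (horizontal) and at CT10 (vertical), with 14 genes named in the text in orange; 11240 genes are drawn and 4 lie outside the axes. *Arntl* is 0.42 at CT6 and 3.33 at CT10, *Saa1*, *Saa2*, *Lcn2* and *Orm2* lie high at both hours, and *Mt1*, *Cry1*, *Raet1e* and *Trex1* lie on opposite sides of 0.

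Whether a difference was particular to CT6 and CT10 was tested by setting the mean genotype difference at these hours against that at CT2, CT14, CT18 and CT22, in all 24 libraries. A single gene passed (1 of 11244, 0.00889%), and it was *Bmal1*, whose difference was higher at CT6 and CT10 by 2.83 on the log2 scale (SE 0.23, adjusted p = 1.62e-05). At the other hours its means in WT and ΔRRE were 12.9 and 3.37 FPKM at CT2, 1.68 and 2.54 FPKM at CT14, 5.86 and 2.97 FPKM at CT18, and 10.8 and 3.56 FPKM at CT22 (n = 2 each). *Bmal1* was above WT at CT6, CT10 and CT14 and below WT at the remaining hours, so that the hours compared here are on the side where the mutant has more. CT6 and CT10 had been chosen as the hours at which *Bmal1* falls to its trough. For *Bmal1* the outcome was thus in part set by that choice, and the contrast is no independent test. An unadjusted p under 0.05 was found for 403 genes (3.58%), 154 (1.37%) with a positive and 249 (2.21%) with a negative value. The next genes did not pass. *Gm21981* (−1.37, SE 0.22, adjusted p = 0.0520) owed its value to WT at CT14, where its mean was 0.127 FPKM against 8.20 to 14.1 FPKM in all other groups, and its difference was 0.01 at CT6 and 0.05 at CT10. *Lamtor3* (0.87, SE 0.17), *Fuca2*, a lysosomal fucosidase (−1.13), and *Lrfn3* (1.10) followed, with adjusted p of 0.433 or more. *Lrfn3* measured 0.232 and 0.234 FPKM in WT and 0.948 and 1.52 FPKM in ΔRRE at CT10. For *Saa1*, the value was 2.77 (adjusted p = 0.999).

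Genes were also classed by the hour of their highest mean, taken over both genotypes, if the highest mean was at least 2 times the lowest. The 203 genes with a peak at CT6 and the 313 with a peak at CT10 had median differences of 0.07 each. Genes that peak at CT22 (190 genes) and CT2 (252 genes) had medians of 0.30 and 0.14, and those that peak at CT14 (296 genes) and CT18 (290 genes) of −0.17 each. The 9700 genes below that ratio had a median of 0.01. The quartiles spanned 0 in every class. Taken at CT6 alone and at CT10 alone, the medians were −0.01 and 0.15 for genes with a peak at CT6. For genes with a peak at CT10 they were −0.09 and 0.18, so that the value over both hours averages opposite signs. Beside 3.09% higher and 1.80% lower of all genes at an unadjusted p under 0.05, the genes higher and lower numbered 31 and 3 in the class of CT2, 9 and 4 in that of CT6, 23 and 17 in that of CT10, 9 and 15 in that of CT14, 3 and 22 in that of CT18, and 31 and 4 in that of CT22. The class of a gene was set in part by the same libraries, and no test was made of these medians.

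**Figure D5:**
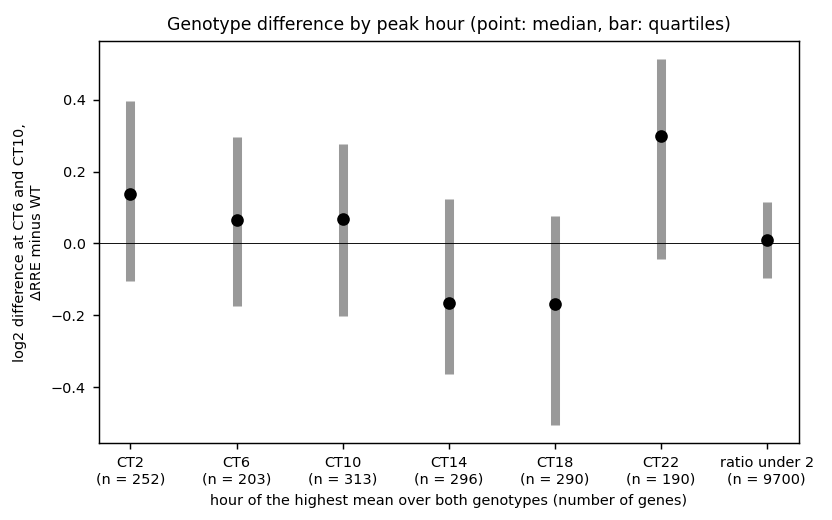
Log2 difference at CT6 and CT10 (ΔRRE minus WT) of genes classed by the hour of their highest mean over both genotypes, with points for the median and bars for the quartiles of each class. The medians are 0.30 for genes with a peak at CT22 and −0.17 for those at CT14 and CT18.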

How the data were processed

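The authors sequenced poly(A)-tailed liver RNA with a strand-specific kit and deposited FPKM values per gene and library. Their processing notes name Trimmomatic 0.39, HISAT2 2.1.0, StringTie 1.3.5 and the genome mm10. Read counts could not be recovered from the FPKM values, so the depth behind each value is unknown and no counting interval is given. Genes that averaged 1 FPKM or more across the 24 libraries were kept, and log2(FPKM + 0.1) was fitted with limma 3.58.1 (R 4.3.3, trended prior, Benjamini-Hochberg adjustment over all genes tested, threshold 0.05), so that fold changes of low genes are understated. The main model held time point and genotype. Cell means of the 4 groups gave the difference at each hour and between the hours, and a fit of all 24 libraries the contrast with the other hours. The fits were tested on simulated data. Named genes were the members of the clock and output lists, the 10 with the smallest p in each direction, the 5 with the smallest p in each other contrast, and list members with an unadjusted p under 0.05. *Socs3*, *Stat3*, *Hamp*, *Mt2*, *Sqle*, *Idi1*, *Pdk4*, *Alas1*, *Itih3*, *Gm2274* and *Alb* were chosen after their values were seen. The members and lists were chosen with earlier results of these data known. Alternatives were the constant added, the filter, a median-of-ratios rescaling, the prior, array weights, the replicate block, the fit of all libraries and each library left out. Some items are not reported here.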

Additional observations from a re-analysis of the deposited data

Results flagged for a closer look

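*Bmal1* (*Arntl*) stood out because its genotype difference was not the same at all hours. The mean difference at CT6 and CT10 exceeded that at CT2, CT14, CT18 and CT22 by 2.83 on the log2 scale (SE 0.23, adjusted p = 1.62e-05 in limma's test), with a range from 2.67 to 2.98 when each library of CT6 and CT10 was left out in turn. The value was 1.78 when 1 FPKM was added before the logarithm and 3.18 when 0.01 FPKM was added, and it passed adjustment with each. CT6 and CT10 had been chosen as the hours at which *Bmal1* falls to its trough, so for this gene the contrast is no independent test.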

How the results depend on the processing

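The number of genes passing adjustment over both hours was 1 with no filter, 1 in the fit of all 24 libraries, and 0 to 5 with a library left out. For the difference between CT6 and CT10 it was 85 with no filter, 1 in the fit of all libraries, and 0 to 2 with a library left out. At CT6 it was 74 with no filter, 1 with a prior without trend, and 0 to 2 with a library left out. At CT10 it was 41 with no filter, 2 with a prior without trend, 2 in the fit of all libraries (*Arntl* and *Lrfn3*), and 0 to 3 with a library left out. Against the other hours it was 2 with 0.01 FPKM added, 15 with no filter, 0 where genes had to average 5 FPKM, which leaves *Bmal1* untested, and 1 to 3 with a library left out. Genes at an unadjusted p under 0.05 numbered 1147 with no filter and 351 where genes had to average 5 FPKM, for both hours together, 1313 and 215 between the hours, 1105 and 180 at CT6, 1436 and 383 at CT10, and 1112 and 242 against the other hours. Fewer or more genes were tested under these filters. Other causes of these shifts were not tested. The median of the RRE-controlled genes ranged from 0.44 to 0.91 and that of the acute-phase genes from 0.43 to 0.74 with a library left out. Median-of-ratios rescaling turned the balance against the other hours from 154 higher and 249 lower to 219 higher and 183 lower.

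No pairing by replicate number was seen, as deviations of same-numbered libraries correlated between −0.12 and 0.19. Such correlations cannot exclude a harvest or batch shared by libraries of the same number. With the replicate number as a block, 0 genes passed adjustment over both hours and 538 had an unadjusted p under 0.05, with 406 between the hours, 324 at CT6, 557 at CT10 and 473 against the other hours, where 1 gene passed.

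Some small differences changed sign. *Bhlhe40* was 0.0324 with array weights, *Clock* at CT6 −0.00659 after rescaling and *Npas2* at CT10 0.45 with 0.01 FPKM added. With a library left out, the differences over both hours ranged from −0.15 to 0.13 for *Bhlhe40*, −0.0780 to 0.48 for *Clock*, −0.12 to 1.22 for *Elovl3*, −0.0273 to 0.10 for *Gm21981*, −0.0275 to 0.71 for *Gsk3b*, −0.0911 to 0.62 for *Hba-a1*, −0.0673 to 0.65 for *Hba-a2*, −0.60 to 0.10 for *Klf10*, −0.22 to 0.31 for *Nr1d1*, −0.12 to 0.17 for *Nr1d2*, −0.14 to 0.42 for *Per1*, −0.10 to 0.41 for *Sox9* and −0.14 to 0.69 for *Timd4*. At CT6 they ranged from −0.33 to 0.37 for *Bhlhe40*, −0.0906 to 0.11 for *Clock*, −0.10 to 0.21 for *Cry2*, −0.99 to 0.39 for *Klf10*, −0.28 to 0.0276 for *Nampt*, −0.74 to 0.29 for *Nr1d1*, −0.14 to 0.13 for *Nr1d2*, −1.24 to 0.0374 for *Per1* and −1.06 to 0.16 for *Wee1*. At CT10 they ranged from −0.18 to 0.12 for *Bhlhe40*, −0.79 to 1.54 for *Cdkn1a*, −0.0824 to 0.54 for *Ciart*, −0.21 to 1.19 for *Clock*, −0.83 to 0.0389 for *Dbp*, −1.06 to 0.69 for *Klf10*, −0.62 to 0.24 for *Noct*, −1.61 to 0.94 for *Npas2*, −0.21 to 0.87 for *Nr1d1*, −0.29 to 0.43 for *Nr1d2* and −0.11 to 0.47 for *Rora*. With 2 libraries a group and unknown depth, small differences could not be detected.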
